A study of Rattus norvegicus with 18 samples.

Results

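The nuclear genes of the mitochondrial respiratory chain were followed in INS-1 clone #4S2, a rat insulinoma β-cell line in which doxycycline switches on a mutant insulin joined to a fluorescent protein, Ins2 (C96Y)-EGFP. Members were chosen by gene symbol alone, as the platform annotation gives it: all symbols that begin with Nduf (complex I), the 4 genes Sdha to Sdhd (complex II), and symbols that begin with Uqcr (complex III), with Cox4 to Cox8 (complex IV) and with Atp5 (ATP synthase, complex V). By this rule 86 of 14217 genes read by a probe set of 1 gene were members, 42 in complex I, 4 in complex II, 7 in complex III, 17 in complex IV and 16 in complex V. The genes Atp5mc1, Atp5mc2, Cox7a2, Ndufa10, Ndufs5 and Uqcrb were read only by probe sets shared with near-identical copies and were not counted.

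Total RNA of cells cultured with doxycycline (2 µg/ml) was compared with RNA of untreated cells of the same clone after 24 h, after 48 h and after 5 days. The 6 groups hold 3 arrays each, and the 3 arrays of a group come from different experiments. All groups carry the same transgenes, and all cells derive from 1 clone that had been sorted for high EGFP after induction. Doxycycline is the only difference that the labels give between the groups of a pair. It is known to inhibit translation on mitochondrial ribosomes, and because none of the arrays analysed here holds doxycycline-treated cells without the mutant insulin, an effect of the drug on mitochondria and an effect of the mutant insulin cannot be told apart here.

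Complexes I to IV pass electrons from NADH and succinate to oxygen, and complexes I, III and IV build with them the proton gradient that complex V uses to make ATP. In β-cells ATP from this chain closes potassium channels and so couples glucose to insulin release. Most subunits are encoded in the nucleus and imported, while a small set, including the catalytic subunits of complex IV, is encoded in mitochondrial DNA. Core subunits carry the redox centres, and accessory subunits surround them and are needed for assembly or stability.

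The promoters of these genes are shown because a shared set of factors, the nuclear respiratory factors NRF1 and NRF2 (an ETS family factor, also called GABP) and YY1, is known to bind many of them. In 78 of the 86 members a RefSeq promoter of the rat assembly GRCr8 was found, 250 bases before to 50 bases after the start. The NRF1 letters, GCGCA and GCGC with any 1 base between them, were in 15 of them (19.2%), against 4.71% of 27457 promoters in all and 8.5% of those of 11700 genes on the array. The ETS letters CCGGAAG were in 22 (28.2%, against 9.22% and 15.1%), and the YY1 letters AAGATGGC in 17 (21.8%, against 3.44% and 4.72%), with both strands searched each time. Other letters were searched as well. CCAAT was in 34.6% (against 37.7% and 37.3%) and ACGTG in 25.6% (against 19.7% and 24.1%). GGGCGG was in 43.6% (against 34.9% and 57.5%) and TGATGNAA, with N any base, in 1.28% (against 3.82% and 2.2%). The 5 promoters below, from RefSeq with GRCr8 coordinates, belong to 3 of the genes that fell at 48 h (Ndufb1, Ndufa12 and Ndufb7), to Sdha, which did not pass the test and had signals of 2759 to 2996 over the arrays of 24 h and 48 h, and to Ndufa4l2, which rose at 48 h. Capitals mark matches to any of the 3 motifs NRF1, ETS and YY1.
Ndufb1, chr6:126888815-126889114 (- strand): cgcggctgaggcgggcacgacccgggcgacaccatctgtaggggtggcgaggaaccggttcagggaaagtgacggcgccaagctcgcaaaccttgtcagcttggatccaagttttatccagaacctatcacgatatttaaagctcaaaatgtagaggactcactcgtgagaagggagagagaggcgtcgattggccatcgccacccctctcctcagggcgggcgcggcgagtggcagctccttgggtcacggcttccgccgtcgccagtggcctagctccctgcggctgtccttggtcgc
Ndufa12, chr7:30658066-30658365 (+ strand): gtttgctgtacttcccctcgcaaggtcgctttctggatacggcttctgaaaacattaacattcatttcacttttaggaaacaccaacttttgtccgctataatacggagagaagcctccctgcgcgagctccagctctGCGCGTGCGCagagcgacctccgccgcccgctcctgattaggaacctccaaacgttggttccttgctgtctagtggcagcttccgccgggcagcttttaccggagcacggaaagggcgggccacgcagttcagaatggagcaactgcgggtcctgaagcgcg
Ndufb7, chr19:41477242-41477541 (- strand): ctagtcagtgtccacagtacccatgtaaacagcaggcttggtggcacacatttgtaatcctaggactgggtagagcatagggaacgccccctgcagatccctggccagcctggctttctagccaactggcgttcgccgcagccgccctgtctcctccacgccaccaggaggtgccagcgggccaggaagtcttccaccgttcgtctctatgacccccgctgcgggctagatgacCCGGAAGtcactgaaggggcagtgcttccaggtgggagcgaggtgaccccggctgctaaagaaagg
Sdha, chr1:30764303-30764602 (+ strand): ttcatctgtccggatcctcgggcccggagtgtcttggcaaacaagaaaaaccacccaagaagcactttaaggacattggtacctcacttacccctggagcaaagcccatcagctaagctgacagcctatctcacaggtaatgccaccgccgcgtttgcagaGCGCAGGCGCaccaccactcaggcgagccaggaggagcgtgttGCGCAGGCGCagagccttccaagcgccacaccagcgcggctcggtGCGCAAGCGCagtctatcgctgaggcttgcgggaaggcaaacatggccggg
Ndufa4l2, chr7:65241919-65242218 (+ strand): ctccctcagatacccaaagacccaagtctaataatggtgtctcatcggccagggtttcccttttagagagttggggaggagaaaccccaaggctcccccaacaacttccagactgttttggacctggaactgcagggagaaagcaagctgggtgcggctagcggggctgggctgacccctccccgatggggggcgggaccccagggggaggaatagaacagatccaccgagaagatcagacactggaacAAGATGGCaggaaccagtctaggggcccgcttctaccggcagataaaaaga
Ndufa12 holds 1 NRF1 match, whose first base lies 112 bases before the start. Ndufb7 holds 1 ETS match that begins 16 bases before it, and Ndufb1 holds none of the 3. Of the genes that fell and are not printed, Ndufa2 holds 1 ETS and 1 YY1 match and Atp5f1e none. Sdha holds 3 NRF1 matches, which begin 89, 46 and 1 base before the start. Ndufa4l2 holds 1 YY1 match, which overlaps the start. At 48 h the median log2 ratio of doxycycline to control was -0.10 over 15 tested members with the NRF1 letters and -0.11 over 58 without, -0.10 and -0.11 with and without the ETS letters (22 and 51 members), and -0.11 both with and without the YY1 letters (17 and 56 members). Lower in all 3 experiments were 7 of 15 members with the NRF1 letters and 35 of 58 without, 12 of 22 and 30 of 51 for the ETS letters, and 12 of 17 and 30 of 56 for the YY1 letters. No test was made of these differences. A match is a run of letters and not a measured binding site.

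Of the 86 members, 80 passed the filter on dim probe sets (the upper 50 percent by mean log2 signal), and the other 6 are all complex IV isoforms known from other tissues or conditions. These are Cox6a2, Cox7a1 and Cox8b of heart and skeletal muscle, Cox4i2 of lung and of low oxygen, and the testis isoforms Cox6b2 and Cox7b2. The signal of Cox8b was at the floor of 5.99 in 14 of 18 arrays and never over 12.9, and that of Cox6b2 was at the floor in 11. Cox4i2 had signals of 6.0 to 68.5 (median 11.6), Cox7b2 of 6.0 to 43.4 (median 19.7) and Cox7a1 of 8.0 to 85.6 (median 47.7). The common counterparts Cox4i1, Cox6a1, Cox6b1, Cox7b and Cox8a all passed the filter. All 13 β-cell markers read passed it, as did none of 11 acinar and duct markers and 1 of 9 fibroblast and endothelial markers. Of 6 markers of other islet cells 1 passed, Gcg (glucagon, the hormone of α-cells), with signals of 7.9 to 2373.

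At 24 h no member passed the threshold, an adjusted p under 0.05 by limma with Benjamini-Hochberg adjustment over 15521 probe sets, where 1.09% of all probe sets were called higher and 0.29% lower. Before adjustment 3 members were lower and none higher at p under 0.05, against 6.96% and 7.60% of all, and the methods' t-test at the same unadjusted threshold gave none in either direction, against 3.13% higher and 1.89% lower over all probe sets. The ratios were small: the median log2 ratio over the members was -0.05, with -0.025, -0.075 and -0.030 in experiments 1, 2 and 3, against medians of -0.003, -0.012 and -0.012 over all probe sets tested. In all 3 experiments 29 members (36.2%) lay below 0, against 20.3% of all probe sets. The members were brighter than most, with a median log2 signal of 12.52, against 9.23 over all probe sets tested. Of 52 members with a mean log2 signal of at least 12, 34.6% were lower in all 3 experiments. The share over 970 such probe sets was 26.9%. This cut was chosen after seeing the data. The 3 members under the unadjusted threshold were Cox5a, a subunit of complex IV, with log2 ratios of -0.28, -0.46 and -0.26 (adjusted p = 0.263), Uqcrc2, a core protein of complex III, with -0.14, -0.26 and -0.24 (adjusted p = 0.196; a second tested probe set gave 0.19, -0.17 and 0.02), and Ndufb7 with -0.17, -0.29 and -0.10 (adjusted p = 0.256). The Cox5a probe set had signals of 140.2 to 502.5, against 6324 or more for the other tested subunits of complex IV, so its reading is uncertain. Ndufa4l2 (mean -0.20) and the assembly factor Ndufaf1 (-0.16) were also among the 5 lowest means. At the other end stood the pseudogene Cox6c-ps1 (mean 0.15), the complex I accessory subunits Ndufs4 (0.12) and Ndufb11 (0.12) and the complex I assembly factors Ndufaf3 (0.11) and Ndufaf4 (0.07), none past the threshold.

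At 48 h 5 members fell, 1 rose and 74 did not pass the test. The 6.25% called lower and 1.25% called higher stand beside 4.73% and 5.64% of all probe sets, so the share called lower was near the background. The log2 ratios of the members lay mostly on the lower side, by small amounts: 46 of 80 (57.5%) were lower in all 3 experiments, against 25.4% of all probe sets, and 9 were higher in all 3, against 22.8%. The 3 signals with doxycycline lay entirely below the 3 control signals in 28 members (35.0%), against 10.8% of all probe sets, and entirely above them in 5 (6.25%, against 11.3%). The median log2 ratio was -0.11, with -0.105, -0.060 and -0.135 in experiments 1, 2 and 3, against -0.005, -0.011 and -0.013 over all probe sets. Ratios varied less between experiments in probe sets with a mean log2 signal of at least 12 (median SD 0.063, against 0.149 over all probe sets), so the same count was taken among these, an alternative chosen after seeing the data. Of 52 such members 35 (67.3%) were lower in all 3 experiments, against 39.5% of 970 such probe sets, and overlap of the groups was not counted there. These shares are a description and carry no test. In RNA of whole cultures, a lower level per cell and fewer cells of high level cannot be told apart.

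**Figure D1:**
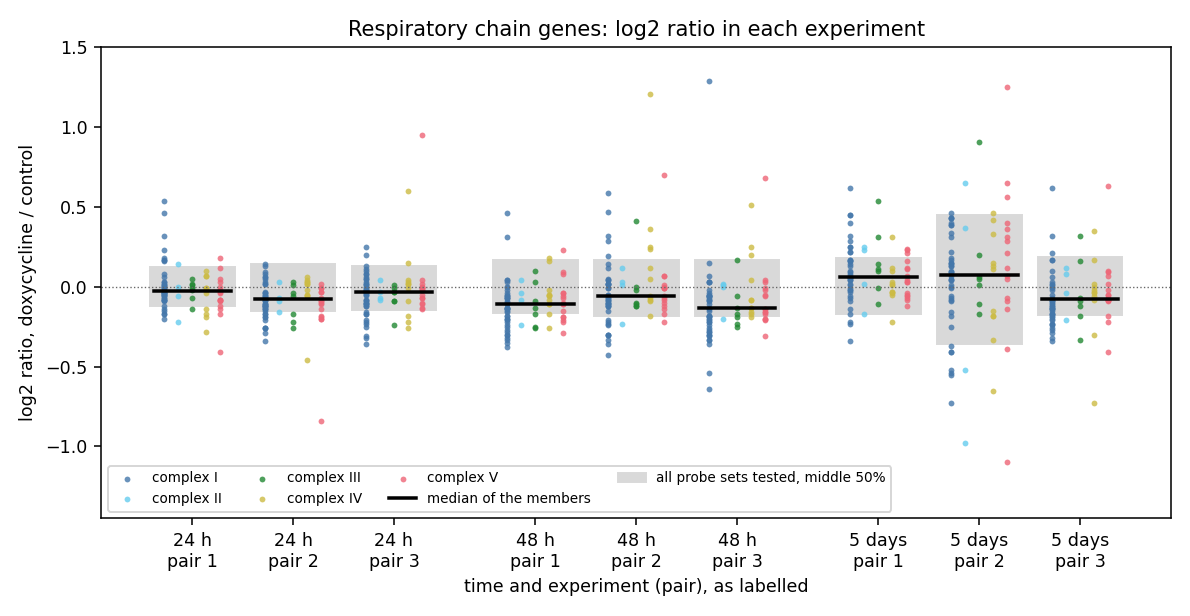
Each point is 1 of the 80 tested members, coloured by complex, and the y axis is its log2 ratio of doxycycline to control in 1 experiment. Black lines are medians over the members and grey boxes hold the middle 50 percent of all 15521 probe sets. The medians lie between -0.025 and -0.075 at 24 h and between -0.060 and -0.135 at 48 h, while at 5 days, as labelled, they are 0.061, 0.076 and -0.076 and the points of experiment 2 spread most.

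Of the 5 members that fell, 4 were accessory subunits of complex I. Ndufb1, of the membrane arm, had signals of 5208, 5292 and 5630 with doxycycline in experiments 1, 2 and 3, against 6646, 7148 and 6962 in control cells. All 3 treated arrays lay below all 3 controls (log2 fold change -0.36 ± 0.07 SE, adjusted p = 0.0221 by limma). Ndufa12, of the matrix arm, had signals of 7951, 8178 and 8575 with doxycycline and of 9816, 10475 and 10258 in control cells. Its groups did not overlap either (log2 fold change -0.31 ± 0.07 SE, adjusted p = 0.0353). At 24 h the same 2 genes had mean log2 ratios of -0.13 and -0.16, with some overlap of the groups for Ndufb1.

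Ndufa2, an accessory subunit of the matrix arm, had signals of 3541, 3704 and 3609 with doxycycline, against 4178, 4277 and 4540 in control cells. The spread among the 3 treated arrays was smaller than the distance to the lowest control (log2 fold change -0.26 ± 0.06 SE, adjusted p = 0.0431). Ndufb7, of the membrane arm, had signals of 1973, 2070 and 1841 with doxycycline and of 2394, 2422 and 2241 in control cells, again without overlap (log2 fold change -0.26 ± 0.07 SE, adjusted p = 0.0489). Atp5f1e, the epsilon subunit in the central stalk of ATP synthase, had signals of 8235, 8499 and 8109 with doxycycline, against 10040, 9898 and 10082 in control cells. This was the only member outside complex I that fell (log2 fold change -0.27 ± 0.07 SE, adjusted p = 0.0473). These calls were close to the threshold and depended on the fit. By the methods' t-test with adjustment 2 members were lower and 0 higher, against 0.264% and 0.78% of all probe sets. Of these only Atp5f1e (adjusted p = 0.0364) was also among the 5, and the other was Atp5mc3, a subunit of the membrane ring of ATP synthase, with log2 ratios of -0.19, -0.17 and -0.17 (adjusted p = 0.0124 by that test and 0.123 by limma). In limma none of the 5 passed with the 48 h arrays fitted alone, without the pairing of arrays or without any 1 of the 3 experiments. No direction turned in 11 alternatives per gene, but most alternatives left the estimate itself unchanged. The 3 ratios of each gene also share a sign, so this adds no support.

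**Figure D2:**
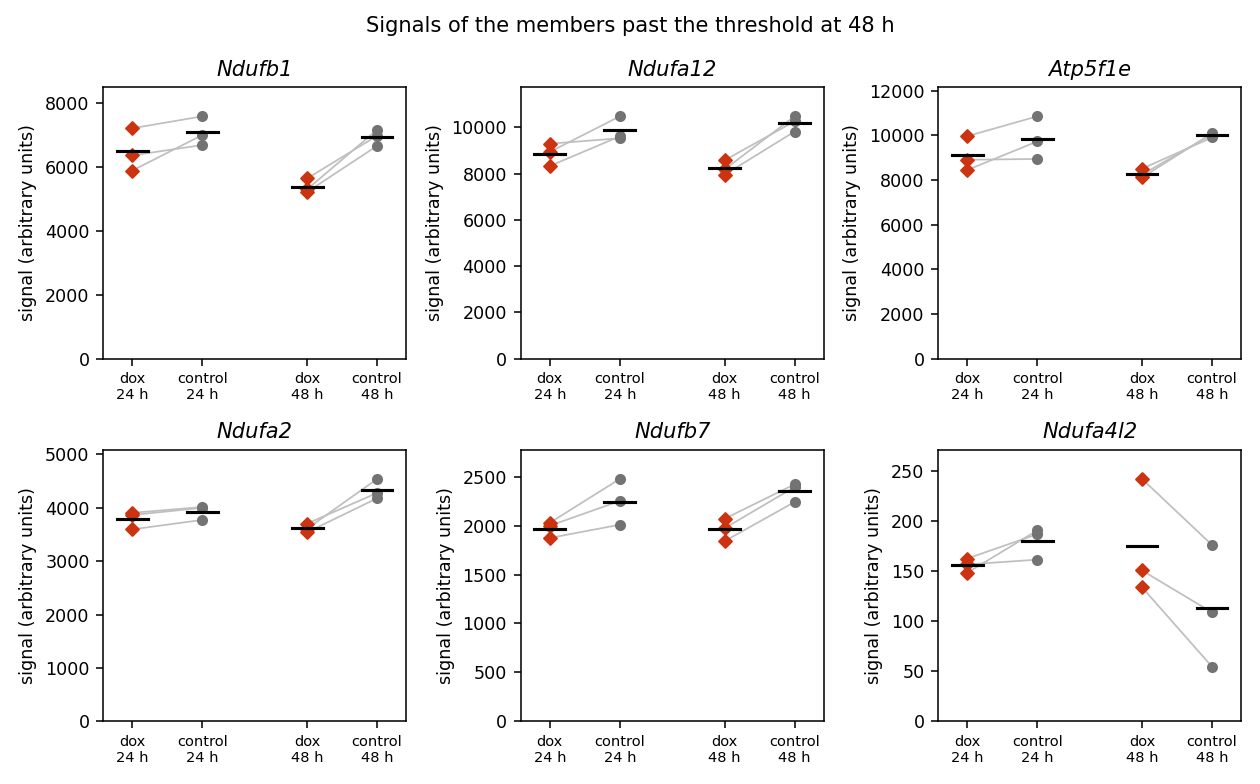
Quantile-normalized signals (y axis, arbitrary units, from 0) of the 6 members past the threshold at 48 h. Red diamonds are doxycycline arrays and grey circles control arrays at 24 h and 48 h, grey lines join the arrays of 1 experiment and black bars are means (n = 3). At 48 h the groups do not overlap for Ndufb1, Ndufa12, Atp5f1e, Ndufa2 and Ndufb7, while for Ndufa4l2 they overlap and each line slopes the same way.

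The member that rose at 48 h was Ndufa4l2, a paralog of Ndufa4 that is known as a target of hypoxia-inducible factor. Its signals were 241.7, 150.4 and 133.6 with doxycycline, against 175.9, 108.6 and 54.5 in control cells. The groups overlapped, since the control of experiment 1 lay above the treated arrays of experiments 2 and 3, but within each experiment the treated array was higher, with log2 ratios of 0.46, 0.47 and 1.29. Ndufa4l2 passed with a log2 fold change of 0.74 ± 0.16 SE (adjusted p = 0.0349), but not without pairing or without any 1 experiment. At 24 h its signals were 162.3, 156.4 and 148.1 with doxycycline and 186.6, 161.2 and 190.4 in control cells, lower with doxycycline each time. Ndufa4 itself, which is named with complex I but is found in complex IV, had log2 ratios of -0.25, -0.15 and -0.08 at 48 h (adjusted p = 0.180).

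Of the accessory subunits of complex I, 4 of 28 fell at 48 h and 24 did not pass. In all, 27 of 28 had a mean log2 ratio below 0, 21 of 28 were lower in all 3 experiments, and their median was -0.13. Of all probe sets 4.73% were called lower, 52.4% had a mean below 0 and 25.4% were lower in all 3 experiments. The last share was 39.5% among probe sets with a mean log2 signal of at least 12. Just outside the threshold were Ndufab1, the mitochondrial acyl carrier protein, with -0.25 (adjusted p = 0.0535), Ndufc1 with -0.39 (adjusted p = 0.0557) and Ndufb3 with -0.22 (adjusted p = 0.0582). Ndufc1, a small subunit of the membrane arm, had signals of 2526, 2435 and 2097 with doxycycline, against 3118, 3052 and 3039 in control cells, without overlap. Its mean ratio was the lowest among the 80 members, with log2 ratios of -0.30, -0.33 and -0.54. Ndufb9, whose probe set gave the highest signal in complex I (an order of probe sets, not of RNA amounts), had log2 ratios of -0.10, -0.05 and 0.03. The 6 core subunits read here, most of which carry the flavin or iron-sulphur centres, had a median of -0.08 and none passed. Among them Ndufs1 had log2 ratios of -0.16, -0.12 and -0.22 (adjusted p = 0.147) and Ndufv1, the NADH-binding subunit, of 0.00, 0.02 and -0.02. For Ndufv1 the 95% interval of the log2 fold change was -0.15 to 0.14, which leaves room for a shift of the size seen at the accessory subunits' median. The 6 assembly factors with an Nduf symbol went both ways, with means of -0.23 (Ndufaf7 and Ndufaf8) to 0.20 (Ndufaf4), and none passed. Whether accessory and core subunits differ was not tested.

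**Figure D3:**
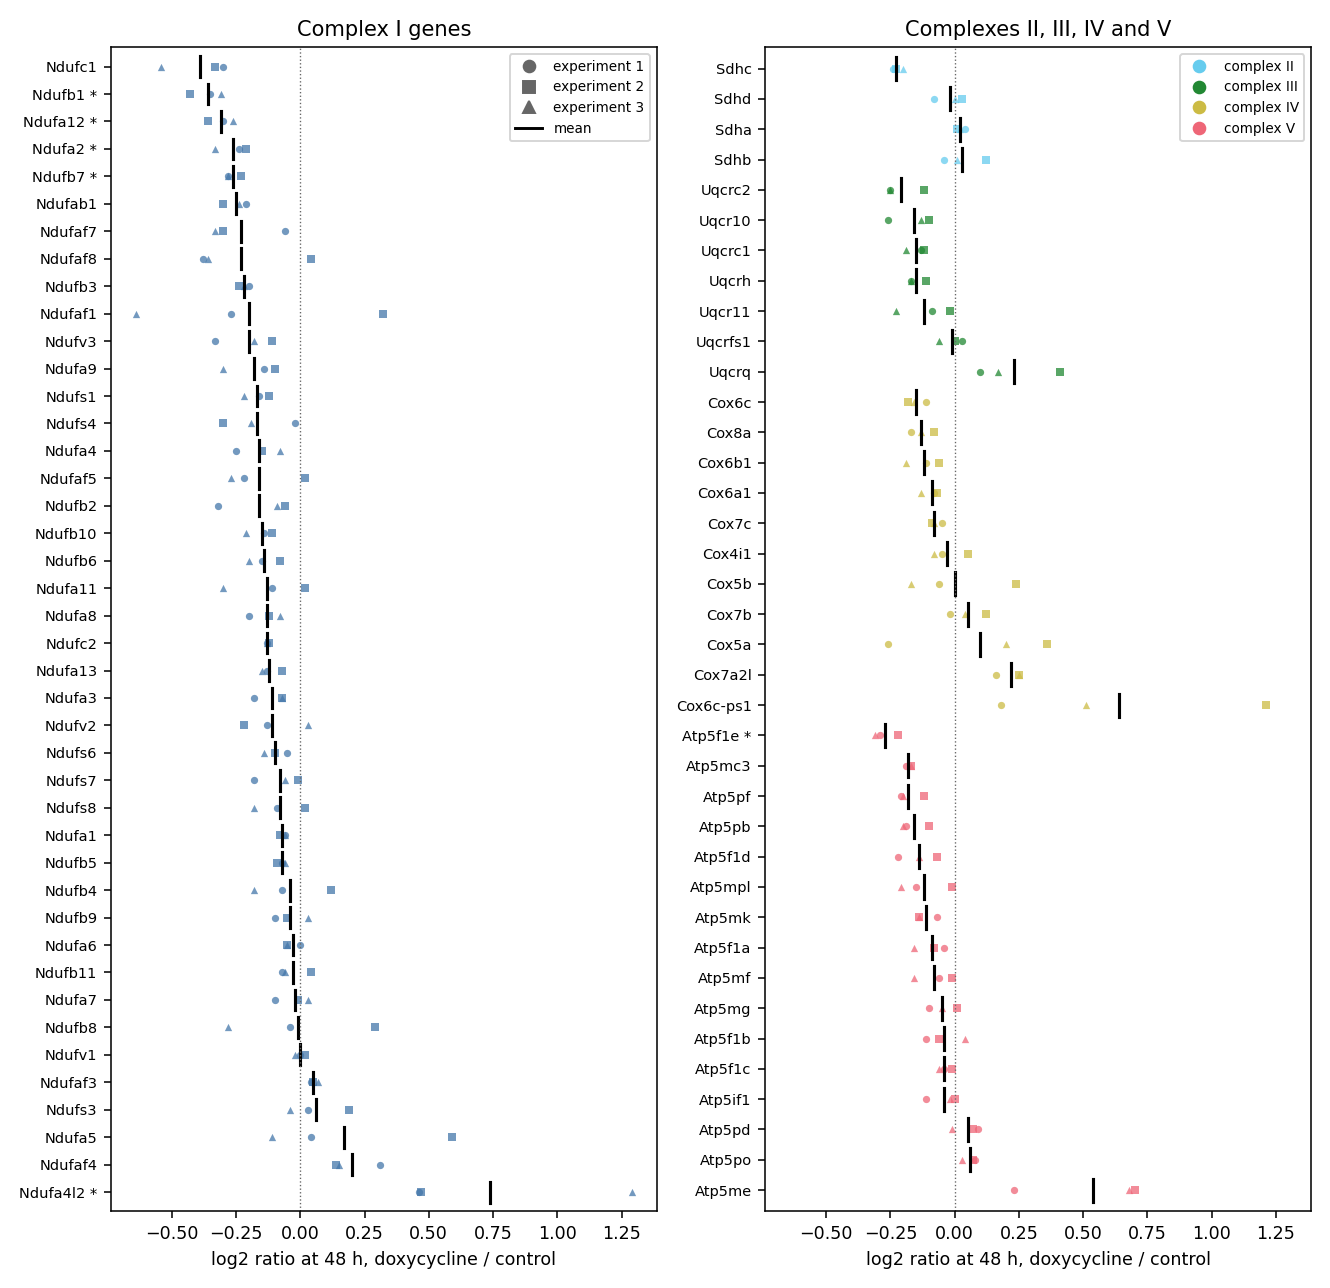
Every tested member at 48 h, complex I on the left and complexes II to V on the right, sorted by mean within each complex. The x axis is the log2 ratio of doxycycline to control, circles, squares and triangles are experiments 1, 2 and 3, black bars are their mean, and asterisks mark an adjusted p under 0.05. Most bars lie between -0.4 and 0, and the points farthest to the right belong to Ndufa4l2, Cox6c-ps1 and Atp5me.

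No member of complex II, which feeds electrons from succinate, passed at 48 h. Sdha, the flavoprotein, had signals of 2901, 2886 and 2964 with doxycycline and of 2823, 2864 and 2921 in control cells. These differ by no more than the controls differ among themselves (95% interval of the log2 fold change -0.12 to 0.16). Sdhb, the iron-sulphur subunit, had log2 ratios of -0.04, 0.12 and 0.01, and Sdhd, a membrane anchor, of -0.08, 0.03 and 0.00. A second tested probe set for Sdhd, of lower mean signal, gave -0.22, 0.00 and -0.20. The other anchor, Sdhc, had signals of 2394, 1915 and 1765 with doxycycline, against 2820, 2254 and 2034 in control cells. The level differed between experiments and the groups overlapped, but the log2 ratios within experiments were alike at -0.24, -0.23 and -0.20 (adjusted p = 0.0697).

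In complex III 6 of 7 members had a mean below 0 at 48 h and 5 were lower in all 3 experiments, with a median of -0.15 and no call. The shares over all probe sets were 52.4% and 25.4%. They were 60.4% and 39.5% among probe sets with a mean log2 signal of at least 12, as most of these members had. Uqcrc2 had log2 ratios of -0.25, -0.12 and -0.25 (adjusted p = 0.0957), but a second probe set for the gene, of lower mean signal, gave -0.13, 0.32 and 0.51, so the 2 disagreed in direction. Uqcrq went the other way with 0.10, 0.41 and 0.17 (adjusted p = 0.109). Uqcrfs1, the Rieske iron-sulphur protein, had log2 ratios of 0.03, 0.00 and -0.06, and the 95% interval of its log2 fold change was -0.15 to 0.14.

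In complex IV 6 of 11 tested members had a mean below 0 at 48 h, the median was -0.03 and none passed. Lower in all 3 experiments were 5, against 25.4% of all probe sets. The share was 39.5% among probe sets with a mean log2 signal of at least 12, as most of these members had. The 5 of 11 lie near that share. The 11 include a pseudogene and a supercomplex factor, both with means above 0. Over the 9 subunits alone the median was -0.08, with -0.081, -0.062 and -0.134 in experiments 1, 2 and 3. Cox6c, whose probe set gave the highest signal in the complex, had signals of 16854, 15802 and 16228 with doxycycline and of 18233, 17900 and 18077 in control cells. The groups did not overlap, yet at a log2 fold change of -0.15 the adjusted p was 0.173. Cox4i1, the regulatory subunit IV, had signals of 11425, 11218 and 10706 with doxycycline, against 11834, 10844 and 11327 in control cells, with overlap. Cox7a2l, a factor that joins complexes III and IV into supercomplexes, was the member above 0 nearest to the threshold after Ndufa4l2, with log2 ratios of 0.16, 0.25 and 0.25 (adjusted p = 0.0822). The annotation also lists the pseudogene Cox6c-ps1, whose signal was close to the filter, with log2 ratios of 0.18, 1.21 and 0.51 (adjusted p = 0.104). Its sequence is near that of Cox6c, so its reading is uncertain. The muscle isoform Cox6a2, too dim for the main test, had signals of 56.0, 32.4 and 67.7 with doxycycline at 48 h, against 6.1, 8.8 and 6.0 in control cells. Its groups did not overlap, but the control values were at or near the floor, and in a fit without the filter the adjusted p was 0.131. At 24 h its signals were 19.7, 24.2 and 6.0 with doxycycline and 6.0, 6.0 and 7.6 in control cells, and at 5 days 211.5, 64.1 and 52.2 in the arrays labelled doxycycline, against 204.3, 481.0 and 8.6 in those labelled control.

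In complex V 13 of 16 members had a mean below 0 at 48 h, 10 were lower in all 3 experiments and the median was -0.08. Here too the shares over all probe sets were 52.4% and 25.4%, and those over probe sets with a mean log2 signal of at least 12 were 60.4% and 39.5%. Most members of complex V were that bright. The F1 subunits, the catalytic head and central stalk, were all 5 below 0, and besides Atp5f1e 3 of them were lower in each experiment, but by less. Atp5f1b, the catalytic beta subunit, had log2 ratios of -0.11, -0.06 and 0.04. Atp5mk, whose probe set gave the highest signal in the complex, had -0.07, -0.14 and -0.14 (adjusted p = 0.273). Atp5if1, which inhibits the enzyme, had -0.11, 0.00 and -0.02. Atp5me, a small membrane subunit, had the highest standard error in complex V. It had signals of 6620, 7496 and 6816 with doxycycline at 48 h, against 5638, 4616 and 4252 in control cells, but 3219, 3393 and 6785 with doxycycline at 24 h, against 4283, 6095 and 3517 in control cells. Its groups did not overlap at 48 h, the log2 fold change was 0.54 with a standard error of 0.30, and the adjusted p was 0.299.

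Other housekeeping complexes were read side by side, with no test between them. At 48 h the median log2 ratio was -0.01 over 73 genes of the mitochondrial ribosome (2.74% called higher and 1.37% lower). It was -0.09 over 37 proteasome subunits (none called) and 0.05 over 42 tested genes of the cytosolic ribosome (none called). Of the proteasome genes 81.1% had a mean below 0, beside 80.0% of the respiratory chain genes. Of all probe sets 52.4% had a mean below 0, and of the mitochondrial ribosome 50.7%.

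**Figure D4:**
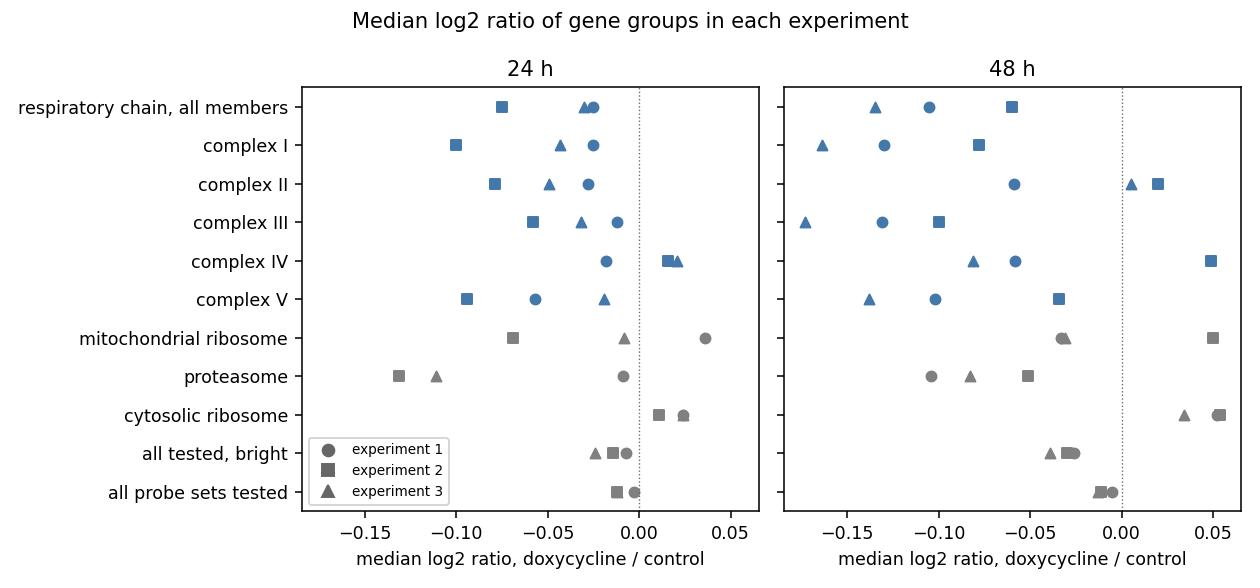
Median log2 ratio of doxycycline to control (x axis) of each group of genes in experiments 1 (circles), 2 (squares) and 3 (triangles), at 24 h on the left and 48 h on the right. Blue marks are the respiratory chain and its complexes, and grey marks other groups and all probe sets. At 48 h complexes I, III and V and the proteasome lie below 0 in all 3 experiments, complexes II and IV and the mitochondrial ribosome on both sides, and the cytosolic ribosome above 0. Complex IV as drawn includes Cox6c-ps1 and Cox7a2l, and its 9 subunits alone had medians of -0.081, -0.062 and -0.134.

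The effect of doxycycline at 48 h was compared with that at 24 h in the same fit. No member passed, and no probe set of 15521 did (0.0% called in each direction). Unadjusted p-values under 0.05 were found for 2 members with a higher and 2 with a lower effect at 48 h, against 3.35% and 3.32% of all probe sets. The larger median displacement at 48 h is therefore a description of the 2 times and not a tested change. In simulated data with the spread of these arrays, the fit recovered 50% of 1.5-fold changes at 48 h and 53.8% at 24 h. The changed genes were drawn from all probe sets tested, whose ratios varied more between experiments at 48 h (median SD 0.149) than those of the members (0.063). The recovery for the members is therefore not known from it. All called decreases among the members were smaller than 1.5-fold. Further shifts of this size could still have been missed, since Ndufc1 at -0.39 did not pass.

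At 5 days the labels could not be relied on. Of 8 ER stress responders, all higher with doxycycline at 48 h and 7 of them at 24 h, the median log2 ratio was 1.8 and 1.19 in experiments 2 and 3 but -1.99 in experiment 1, where the library labelled doxycycline was the lower one. In addition, the library labelled doxycycline, experiment 2, gave 2.91 times as much signal from the 3' as from the 5' GAPDH probe set, where the other 17 gave 1.05 to 1.19 times as much. No member passed at 5 days, and 0.0% of all probe sets were called in either direction. Ndufa5 alone had an unadjusted p under 0.05, against 1.11% of all probe sets higher and 1.37% lower. By the methods' t-test with adjustment none passed either. In simulated data with the spread of the 5-day arrays, the fit recovered 0% of 4-fold changes, so its lack of calls says nothing about stability. As labelled, the members' medians were 0.061, 0.076 and -0.076 in experiments 1, 2 and 3. With the labels of experiment 1 exchanged its median becomes -0.061, and the median over members was -0.036, or -0.082 when experiment 2 was also left out. In the fit of all 18 arrays with that exchange, none of the members passed, against 1.83% of all probe sets called higher and 0.908% lower, and with unadjusted p-values under 0.05 there were 2 higher and 7 lower members, against 12% and 10.1% of all.

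Single members varied widely at 5 days, most of all in experiment 2, with the library of the high GAPDH ratio. The median standard deviation of a member's log2 ratio over the 3 experiments was 0.221 at 5 days, against 0.063 at 48 h and 0.078 at 24 h. Atp5f1d, the delta subunit of F1, had log2 ratios of 0.24, -1.10 and -0.09, Sdhc of 0.23, -0.98 and -0.21, and Uqcrh, the hinge protein of complex III, of -0.11, 0.91 and -0.09. In each of these the extreme value was that of experiment 2. Ndufv2, a core subunit with an iron-sulphur centre, had -0.22, -0.73 and -0.20, while Ndufa5 had 0.40, 0.34 and 0.62, Ndufaf1 0.45, 0.39 and 0.21, and Atp5me -0.12, 1.25 and 0.63. The remaining members at either end were Ndufa3 with 0.04, -0.54 and -0.12, Ndufaf4 with -0.34, -0.37 and 0.17 and Atp5mpl with 0.04, 0.65 and -0.05. None of these passed the threshold with any labelling tried.

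Genes that work with the chain but fall outside the symbol rule were read from lists, whose counts at 48 h stand beside 5.64% of all probe sets called higher and 4.73% called lower. Of 33 tested assembly factors without an Nduf symbol and of 15 genes of the tricarboxylic acid cycle none passed at 24 h or 48 h. Of 15 electron carriers and other entry points 3 fell at 48 h and none at 24 h: Cyc1, the cytochrome c1 of complex III, with a log2 fold change of -0.26 (adjusted p = 0.0488), Sqor, which passes electrons from sulphide to ubiquinone, with -0.29 (adjusted p = 0.0431), and Coq7, an enzyme of ubiquinone synthesis, with -0.41 (adjusted p = 0.0261). Among 15 regulators of mitochondrial biogenesis 3 rose at 48 h and none fell. These were Nrf1, the factor whose letters are marked above, with log2 ratios of 0.50, 0.85 and 1.06 (adjusted p = 0.0117), Pprc1, a coactivator of NRF1, with 0.49, 0.21 and 0.56 (adjusted p = 0.0235), and Tfb2m, a mitochondrial transcription factor, with 0.31, 0.52 and 0.44 (adjusted p = 0.0249). Of 2 further Nrf1 probe sets, both too dim for the test, 1 gave 0.82, 0.48 and 0.57 and the other 1.57, -0.94 and 1.46. The 15 members with the NRF1 letters had a median of -0.10 at the same time.

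Of 15 mitochondrial chaperones and proteases 2 rose at 48 h. Hspa9, the mitochondrial HSP70, had log2 ratios of 0.61, 0.55 and 0.61 (adjusted p = 0.00562), and its second tested probe set gave 0.71, 0.46 and 0.56. Htra2, a protease of the intermembrane space, had 0.27, 0.51 and 0.34 (adjusted p = 0.0337). Of 19 import components and carriers 1 rose, Timm8a1 with 0.33, 0.81 and 0.55 (adjusted p = 0.0341), and its second probe set did not pass (adjusted p = 0.108). These calls also depended on the fit. Of 11 alternatives Hspa9 kept its call in 7, Nrf1 in 5, Pprc1 and Coq7 in 3 each, and Tfb2m, Htra2, Timm8a1, Cyc1 and Sqor in 2 each. No direction changed, but the 3 ratios of each gene share a sign, so a change could hardly occur. Nrf1 did not pass without experiment 2 or 3 at 48 h or by the methods' t-test. Hspa9 did not pass in the limma fit without the pairing, but it passed by the methods' t-test, which uses no pairing. In the same arrays 8 of 13 tested β-cell markers fell at 48 h and 2 at 24 h, against 4.73% and 0.29% of all probe sets called lower. The median log2 ratio of these markers was -0.32 at 48 h. Their summed signal was 103633, 112828 and 117001 with doxycycline at 48 h, against 121746, 131950 and 133386 in control cells. Gcg fell at both times. Its signals were 90.0, 1118 and 853.7 with doxycycline at 24 h, against 341.6, 2373 and 1619 in control cells (log2 fold change -1.31 ± 0.19 SE, adjusted p = 0.0239), and 261.5, 270.6 and 292.1 with doxycycline at 48 h, against 1909, 1470 and 2057 in control cells (log2 fold change -2.71 ± 0.19 SE, adjusted p = 0.00112). The groups of Gcg overlapped at 24 h and not at 48 h. The summed signal of the 6 markers of other islet cells was 389 to 418 with doxycycline at 48 h, against 1595 to 2191 in control cells. Most of each sum was Gcg itself, so the sums repeat its fall. The others, Sst, Ppy, Ghrl, Irx2 and Hhex, were too dim for the test. The part of these changes in the lower ratios of the respiratory chain genes was not tested.

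Of the 13 protein-coding genes of mitochondrial DNA only COX1 and COX2, catalytic subunits of complex IV, were read by a probe set of 1 gene. Both were among the strongest signals of every array, where quantile normalization sets values by rank, so the deposited signals are given. COX1 had 21726, 28416 and 31660 with doxycycline at 48 h, against 26096, 30304 and 31330 in control cells. COX2 had 26710, 31910 and 37327 with doxycycline and 30796, 36274 and 36672 in control cells. Both were lower with doxycycline in experiments 1 and 2 and slightly higher in 3, with overlapping groups. After normalization neither passed at any time, with log2 fold changes of 0.01 and 0.03 at 48 h. These are RNA levels, and translation on mitochondrial ribosomes was not measured.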

How the data were processed

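The authors hybridized total RNA from 18 samples to Affymetrix Rat Genome 230 2.0 arrays and deposited linear signal intensities, scaled to a common level (2% trimmed means of 500.14 to 500.17). The sources used here do not name the program that computed the intensities, and detection calls were not used. Groups came from the labels. Intensities were quantile normalized, set to a floor at the 10th percentile (5.99) and converted to log2, and the 15521 of 31042 probe sets (57 controls left out) whose mean log2 signal was in the upper 50 percent were tested. Gene names came from the platform annotation, with 20826 probe sets of 1 gene, 436 of several and 9780 of none. A gene was read by its probe set of 1 gene with the highest mean signal.

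With limma 3.58.1 in R 4.3.3, 1 model was fitted to the 12 arrays of 24 h and 48 h with each same-numbered pair as a block and a doxycycline effect per time, and another to the 6 arrays of 5 days as labelled. P-values were adjusted by Benjamini-Hochberg over all probe sets tested, with a threshold of 0.05. After group means were subtracted, same-numbered arrays correlated at 0.484 to 0.667 (24 h), 0.256 to 0.578 (48 h) and 0.109 to 0.149 (5 days). The numbers were taken as pairs, as in the per-experiment ratios of the study. At 5 days the correlations were low and give little ground for pairing, and arrays of different numbers were not compared in this way. The 3 arrays of a group come from separate experiments on 1 clone. The procedure was tested on simulated data. Members, lists and tests were chosen with earlier results of these data known. Genes named are those past the threshold, the 5 highest and 5 lowest mean ratios at each time, the member of strongest signal in each complex, isoforms of other tissues, and list genes past the threshold, and others, such as Ndufv1, Ndufs1 and Cox4i1, were added once their values were known. Alternatives are given in the closing section. Precision is limited by the number of arrays.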

Additional observations from a re-analysis of the deposited data

Results flagged for a closer look

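Ndufa4l2 stood out for a difference between the 2 times. Its mean log2 ratio of doxycycline to control was 0.74 at 48 h, above 0 in 3 of 3 experiments, and -0.20 at 24 h, below 0 in 3 of 3. The difference between them was 0.94 ± 0.23 SE, and with an adjusted p of 0.658 over all probe sets in the limma contrast it failed the correction.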

How the results depend on the processing

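The 5 lower and 1 higher calls at 48 h rested on the shared fit of 24 h and 48 h. Both counts were 0 with the 48 h arrays fitted alone, with all 18 arrays fitted (with or without the 5-day exchange), without the filter on dim probe sets, without the replicate block and by the 2-fold rule, and each ranged from 0 to 0 when 1 experiment was left out. The methods' t-test with adjustment called 2 lower and 0 higher, and without quantile normalization 3 were lower. Per called gene, 2 of 11 alternatives kept the call (1 of 11 for Ndufb7). None turned its direction, but most alternatives do not change the estimate, so this adds no support. No call at 24 h, 5 days or between times appeared in any alternative, which at 5 days says nothing about stability. The median log2 ratio kept its sign at 24 h and 48 h in every alternative, with -0.078 to -0.126 at 48 h when 1 experiment was left out. At 5 days it was 0.020 as labelled and -0.082 with experiment 1 exchanged and 2 left out. Members lower in every pair, an alternative count added after seeing the data, were 46 to 60 at 48 h and 32 to 45 at 24 h without 1 experiment, where fewer pairs must agree. At 5 days there were 2, with 5 to 20 without 1 experiment and 4 without quantile normalization. The median log2 ratio moved by more than its spread between experiments in 1 of 29 alternative values, and 55 of 66 alternatives for the called genes lost the call. Of the 9 genes named from lists, Hspa9 kept its call in 7 of 11 alternatives, Nrf1 in 5 and the others in 2 or 3. Precision was limited by 3 arrays per group and, for dim isoforms, by signal near the floor.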
